A study of Mus musculus with 13 samples.

Results

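Metallothioneins and iron handling genes were followed through the nuclei of the mouse hippocampus: the metallothioneins Mt1, Mt2 and Mt3, the ferritin subunits Fth1 and Ftl1, the transferrin receptor Tfrc, transferrin (Trf) and the iron exporter ferroportin (Slc40a1). These 8 genes were chosen by symbol, and all 8 were found among the 32285 genes of the count matrices. Gene expression had been measured by droplet single-nucleus RNA sequencing as UMIs (molecules told apart by a random tag) in whole frozen hippocampus of 13 female mice of the C3B6F1 hybrid strain, written C3HB6F1 in the sample characteristics, with 1 library per mouse. Young mice were 5 months old and fed ad libitum (n = 3). Old mice were 24 months old and were fed ad libitum (n = 3), held on dietary restriction from 20 months of age (acute restriction, n = 3) or held on it from 5 months of age (long-term restriction, n = 4). Nuclei were stained with Hoechst dye and sorted, and the labels name no transgene and no antibody to a cell type.

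Metallothioneins are small cysteine-rich proteins that bind zinc and copper. Mt1 and Mt2 are induced by metals through the transcription factor MTF1 and by glucocorticoids, whereas Mt3 is the brain form. Iron reaches the brain through the transferrin receptor of capillary endothelium, circulates bound to transferrin, which oligodendrocytes make in the brain, is stored in ferritin shells of heavy (Fth1) and light (Ftl1) subunits, and leaves cells through ferroportin. Much of the control of the iron genes acts on the mRNA in the cytoplasm, where iron regulatory proteins bind hairpins called iron responsive elements, and nuclei hold mostly RNA that has not yet been exported.

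The hairpins of the iron genes are shown because iron regulatory proteins bind elements of this type. An unpaired C, 5 paired bases and the loop CAGTGN on the transcript strand were searched in the untranslated regions of GENCODE M21 transcripts (GRCm38). The capitals mark the loop. Fth1, Ftl1 and Slc40a1 held the element in the 5′ untranslated region, which 30 of 21200 genes did (0.142%). Tfrc held 4 in its 3′ untranslated region, where 144 of 21849 genes (0.659%) had at least 1. Such a match is a description of the letters and no measurement of binding, and a member without a match is not shown to lack that control.
Fth1: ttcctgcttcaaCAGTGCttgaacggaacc
Ftl1: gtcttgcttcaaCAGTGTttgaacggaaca
Slc40a1: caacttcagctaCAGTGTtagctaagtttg
Tfrc, site a: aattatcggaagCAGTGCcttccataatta
Tfrc, site b: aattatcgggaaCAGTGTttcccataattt
Tfrc, site c: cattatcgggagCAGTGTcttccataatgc
Tfrc, site d: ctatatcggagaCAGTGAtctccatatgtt

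The promoters of Mt1 and Mt2 are shown because both genes are known to be induced by metals. The part of these sequences in the levels measured here was not tested. Capitals mark the core of the metal response element, TGCGCNC or TGCACNC on either strand. In the windows of 250 bases before to 50 after the annotated start (RefSeq, GRCm38.p6, where 6 of the 8 members were matched), Mt1 held 3 cores, Mt2 held 4, Mt3 held 1 and the first start of Tfrc held 2 that overlap. The windows of Fth1 and Ftl1 held 0. Of 32851 promoters of the same length, 25.7% held at least 1 core, 1.97% held 3 or more and 0.518% held 4 or more.
Mt1, chr8:94178859-94179118, plus strand: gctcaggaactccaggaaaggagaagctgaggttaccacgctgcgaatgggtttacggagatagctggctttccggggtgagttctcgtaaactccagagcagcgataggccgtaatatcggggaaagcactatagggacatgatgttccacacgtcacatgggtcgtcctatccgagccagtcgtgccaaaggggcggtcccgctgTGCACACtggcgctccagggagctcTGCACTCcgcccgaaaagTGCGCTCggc
Mt2, chr8:94172388-94172647, plus strand: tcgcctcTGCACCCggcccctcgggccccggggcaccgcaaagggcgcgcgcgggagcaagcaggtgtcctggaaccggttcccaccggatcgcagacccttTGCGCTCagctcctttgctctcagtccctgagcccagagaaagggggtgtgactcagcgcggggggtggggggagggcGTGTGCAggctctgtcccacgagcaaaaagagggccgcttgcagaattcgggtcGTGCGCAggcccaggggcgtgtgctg

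By the GENCODE M21 annotation of GRCm38, the metallothionein genes lie close together on the plus strand of chromosome 8: Mt3 at 94152607 to 94154146, Mt2 at 94172664 to 94173568 and Mt1 at 94179082 to 94180327. Fth1 lies on chromosome 19 (9980598 to 9985098) and Ftl1 on chromosome 7 (45457944 to 45459884). These 5 genes are short, spanning 905 bases (Mt2) to 4501 bases (Fth1). Tfrc on chromosome 16 (32608920 to 32632794), Trf on chromosome 9 (103204001 to 103230444) and Slc40a1 on chromosome 1 (45908068 to 45926523) span 18456 to 26444 bases. The use of strand in the authors' counting is not given in the sources used here. UMIs of Mt2 could therefore include Gm45774 on the opposite strand, those of Ftl1 could include Gm22133 or Gm10252, and those of Trf could include Gm20425. A processed copy of Ftl1, Ftl1-ps1, and 6 genes of the Fthl17 family are counted separately in the matrices, and reads may be split with them.

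The matrices held 105759 barcodes and 742437104 UMIs, with medians of 3688 to 11195 UMIs per nucleus by library. Of 98041 nuclei retained, 81921 fell in 14 classes that were named X-like by their markers, and 12 clusters stayed unnamed. Of the barcode sequences, 1358 occurred in 2 or more libraries, with at most 40 shared by any 2 libraries. The 4 libraries numbered 1 in their titles, with 1 in each group, stood apart from the other 9: oligodendrocyte-like nuclei made up 0.837% to 4.22% of their named nuclei and 9.12% to 26.9% elsewhere. Tests are given with and without them, or with a term for number 1 in the fit. Levels are given over all mice. They are also given for both sets of mice apart for the metallothioneins and ferritins in the classes that lead, and for Trf in neuronal classes. Counts were summed per mouse in 10 classes, and a level is given as CPM, the UMIs of a gene scaled by all UMIs of the class in that mouse. A gene-class pair was called at an edgeR quasi-likelihood adjusted p below 0.05. Endothelial-like and mural-like sums were available for 9 mice each and the other 8 classes for all 13. Of the 80 pairs of a member and a class, 58 passed the filter on low counts: Fth1 in 10 classes, Mt1 and Ftl1 in 9, Tfrc in 8, Mt3 and Trf in 7, and Mt2 and Slc40a1 in 4.

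Mt1 had its highest levels in endothelial-like and astrocyte-like nuclei. In astrocyte-like nuclei the lowest, median and highest mouse had 97.9, 225 and 532 CPM (5935 UMIs in all), and in endothelial-like nuclei 49.0, 227 and 453 CPM (217 UMIs). Their mean log2 CPM differed by 0.023, less than the SD over mice of 0.68 in astrocyte-like nuclei, and which of the 2 classes is higher is not resolved. Endothelial-like sums stood apart in RNA content: ribosomal protein genes made up 1.04% to 1.98% of their UMIs and at most 0.769% in any mouse of the other 9 classes, and mitochondrial genes 0.066% to 0.159% against at most 0.086%. The haemoglobin genes Hbb-bs and Hba-a1 were among the 10 leading genes of that cluster. The part of these in the endothelial-like levels of the members was not tested. Fibroblast-like nuclei, which were not tested between groups, followed at a median of 63.3 CPM over 9 mice. Mural-like nuclei were at a median of 35.1 CPM, oligodendrocyte-like at 33.9 and microglia-like at 26.3. The mural-like values rested on 46 UMIs in all (0 to 23 per mouse) and the microglia-like ones on 77 (1 to 14 per mouse). The 4 neuronal classes that were tested had medians of 4.88 to 9.17 CPM. Mice numbered 1 had higher medians than the other mice, at 369 and 183 CPM in astrocyte-like, 254 and 227 in endothelial-like, 102 and 28.8 in mural-like and 94.4 and 17.6 in microglia-like nuclei. Astrocyte-like nuclei thus had the higher median in the mice numbered 1 and endothelial-like nuclei in the others. The latter medians came from 9 mice in astrocyte-like but 5 in endothelial-like nuclei. Of the 9 mice with both sums, 3 were higher in endothelial-like nuclei.

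Mt2 had the same leading classes at fewer counts. Astrocyte-like nuclei ranged from 18.2 to 123 CPM with a median of 63.1, and endothelial-like nuclei from 8.17 to 192 with a median of 32.4 and only 47 UMIs in all. The medians of mice numbered 1 and of the others were 90.9 and 52.1 CPM in astrocyte-like and 58.8 and 28.4 CPM in endothelial-like nuclei. In the 4 neuronal classes that were tested no mouse exceeded 6.67 CPM of Mt2, and in Cajal-Retzius-like neurons, not tested, 7 mice had 0 to 8.33 CPM from 2 UMIs. The ratio of Mt2 to Mt1 UMIs is a description of these UMIs: it was 0.273 in astrocyte-like, 0.218 in endothelial-like, 0.236 in CA1-like, 0.103 in oligodendrocyte-like and 0.147 in granule-like nuclei.

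Mt3 was highest in astrocyte-like nuclei, with 43.3, 123 and 387 CPM in the lowest, median and highest mouse. Mural-like nuclei had a median of 71.1 CPM from 59 UMIs in all, with 1 to 20 per mouse. The difference in mean log2 CPM (0.65) was within the SD of 0.91 there, although all 9 mice with both sums were higher in astrocyte-like nuclei. The medians of mice numbered 1 and of the others were 284 and 112 CPM in astrocyte-like and 134 and 22.5 CPM in mural-like nuclei. The neuronal classes had medians of 16.5 CPM in inhibitory-like, 17.02 in CA3-like, 17.8 in CA1-like and 20.0 in granule-like nuclei. The ratio of Mt3 to Mt1 UMIs was below 1 in astrocyte-like nuclei (0.669; mice 0.280 to 0.853) and endothelial-like nuclei (0.261). It was 2.41 in granule-like (mice 1.30 to 3.39), 3.33 in CA1-like, 2.53 in CA3-like and 1.86 in inhibitory-like nuclei. The ranges of the 13 mice in astrocyte-like and granule-like nuclei did not overlap. The part of free RNA in these ratios was not tested.

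**Figure D1:**
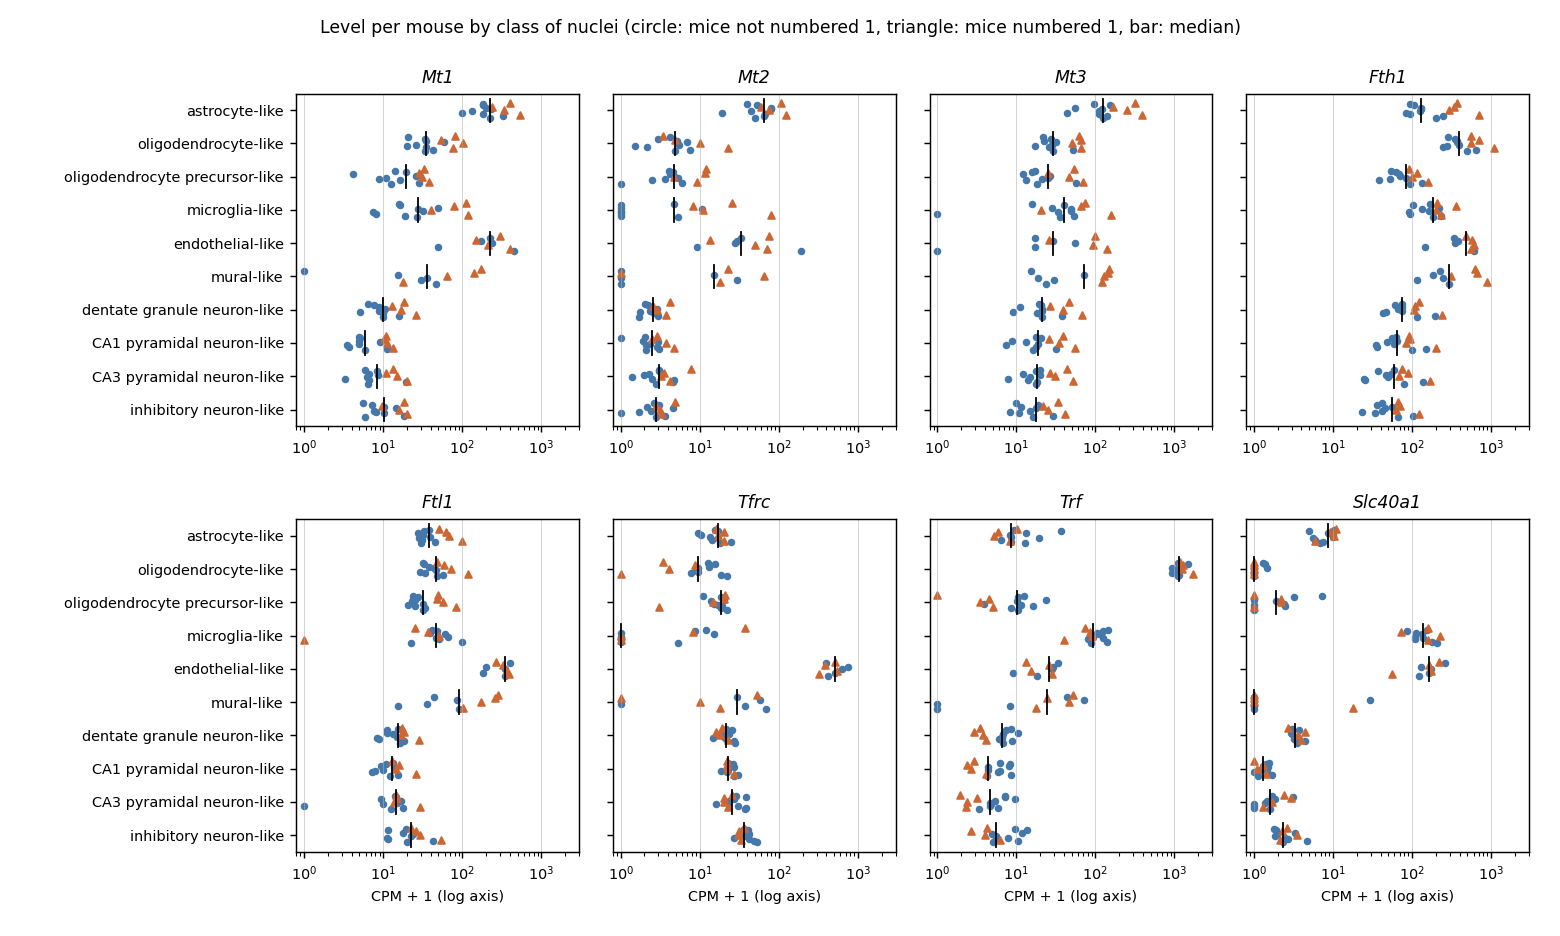
Each point is the level of a gene in 1 mouse and class, as CPM + 1 on a log axis. Triangles are the 4 mice numbered 1, circles the other 9, and bars the medians. Tfrc stands out in endothelial-like nuclei (318 to 739 CPM) and Trf in oligodendrocyte-like nuclei (927 to 1691 CPM), while Fth1 is at 22.4 CPM or more in every mouse and class.

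Fth1 was present in every class and mouse. Oligodendrocyte-like nuclei had 248, 390 and 1077 CPM in the lowest, median and highest mouse (7390 UMIs), and endothelial-like nuclei had 147, 479 and 611 CPM (429 UMIs). Their mean log2 CPM differed by 0.029, so that these classes were not separated. Mural-like (median 293), fibroblast-like (262), microglia-like (182), macrophage-like (148) and astrocyte-like nuclei (131) came next over all mice, and the lowest level was that of inhibitory-like nuclei (median 55.0). The order of classes differed between the mice numbered 1 and the others. Oligodendrocyte-like nuclei had medians of 630 CPM in the former and 365 in the latter, and endothelial-like nuclei 564 and 345 CPM. In the mice numbered 1, mural-like nuclei had the highest median of all classes, at 643 CPM. Astrocyte-like nuclei had 352, fibroblast-like 322, microglia-like 222 and macrophage-like 146 CPM there. In the other mice these 5 classes had 228, 126, 144, 165 and 150 CPM, so that which of them is higher is not resolved. Endothelial-like, mural-like and fibroblast-like sums came from 4 mice numbered 1 and 5 others. Inhibitory-like nuclei had the lowest median in both sets (67.2 and 41.3 CPM).

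Ftl1 was highest in endothelial-like nuclei, with a lowest, median and highest level of 180, 345 and 405 CPM. Mural-like nuclei had a median of 90.1 CPM, fibroblast-like nuclei 72.0 CPM over 9 mice and macrophage-like nuclei 50.5 CPM over 8, and the other 8 classes that were tested had medians of at most 46.0 CPM. In mural-like nuclei, with 91 UMIs in all, the median was 215 CPM in mice numbered 1 and 42.7 in the others. In endothelial-like nuclei it was 346 and 345. Light relative to heavy subunit UMIs thus differed by class. The ratio of Ftl1 to Fth1 was 0.662 in endothelial-like, 0.428 in precursor-like and 0.398 in inhibitory-like nuclei, but 0.105 in oligodendrocyte-like and 0.143 in granule-like nuclei. In 13 mice the ratio was 0.286 to 0.524 in inhibitory-like nuclei and 0.0820 to 0.132 in oligodendrocyte-like nuclei, without overlap. These ratios compare UMIs of 2 genes between classes and not the amounts of the subunits.

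Tfrc, which takes up transferrin-bound iron, was concentrated in endothelial-like nuclei. The 9 mice with a sum had 318 to 739 CPM with a median of 507, and each of the 8 with both sums exceeded its own mural-like nuclei, where the median was 28.5. Mural-like sums held 23 Tfrc UMIs in all, with 0 to 7 per mouse. Inhibitory-like nuclei followed with 26.4, 35.5 and 51.8 CPM, and exceeded CA3-like nuclei (median 24.8) in 13 of 13 mice. Tfrc had a UMI in 51.4% of 381 endothelial-like nuclei (Wilson 95% interval 46.4% to 56.4%, counting error only). Thinned to 1000 UMIs per nucleus the share was 35.9%, and it was 3.40% in inhibitory-like and 1.09% in oligodendrocyte-like nuclei.

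Trf, the iron carrier, was highest in oligodendrocyte-like nuclei. Oligodendrocyte-like nuclei had 927, 1130 and 1691 CPM in the lowest, median and highest mouse (22746 UMIs), and 80.4% of them had a UMI. Microglia-like nuclei were the next class at a median of 93.0 CPM, and the ranges did not overlap. Macrophage-like nuclei had a median of 84.2 CPM over 8 mice and fibroblast-like nuclei 76.0 CPM over 9. In the 4 neuronal classes that were tested the median was 3.38 to 5.67 CPM, and 3.53% of granule-like nuclei had a UMI at a median depth of 6370 UMIs against 1884 in oligodendrocyte-like nuclei. Medians of mice numbered 1 and of the others were 1.81 and 5.16 CPM in CA1-like and 1.33 and 4.35 in CA3-like nuclei. They were 2.65 and 5.80 CPM in granule-like and 3.13 and 6.87 in inhibitory-like nuclei. Among these neuronal classes the ranges of the sets overlapped only in inhibitory-like nuclei. The level in neuronal classes may hold free RNA and is not read as expression.

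Slc40a1, the iron exporter, was found in endothelial-like nuclei (55.3, 163 and 259 CPM) and microglia-like nuclei (71.1, 137 and 227 CPM). These 2 classes differed by 0.24 in mean log2 CPM, within their SDs of 0.59 and 0.45. The other 8 tested classes were lower, with a median of 7.57 CPM in astrocyte-like nuclei and of 0 to 2.35 CPM in the rest. In 10016 oligodendrocyte-like nuclei only 3 UMIs were counted, in 3 nuclei (0.030%, Wilson 95% interval 0.010% to 0.088%), against 16.8% of 1629 microglia-like nuclei at a lower median depth of 1402 UMIs. Macrophage-like nuclei had a median of 42.6 CPM over 8 mice.

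In the clusters left unnamed that held at least 100 nuclei, 10 in number, Slc40a1 reached at most 1.72 CPM. Fth1 was at 55.9 to 85.4 CPM in 9 of them. It was at 310 CPM in the other, where 89.6% of barcodes had been removed as doublets and 119 nuclei remained. Tfrc was at 15.5 to 30.9 CPM in 9 and at 228 CPM in 1, of which 88.7% of barcodes came from 1 library.

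For ageing, the old ad libitum mice were set against the young ones. No member was called in any class: edgeR called 0 of 58 pairs, where 1.66% of all 97366 tests were called (0.707% lower and 0.952% higher in old mice). DESeq2 also called 0, where it called 3.47% of all tests (1.44% lower and 2.03% higher). At an unadjusted p below 0.05 in edgeR there were 8 of the 58 pairs, 7 of them lower in old mice. Over all genes, 17867 of the 97366 tests had such a p. With a term for number 1, edgeR called 8 of the 58 pairs (13.8%), all lower in old mice, where 7.09% of all tests were called and 4.25% called lower. They were Fth1 in 7 classes and Ftl1 in oligodendrocyte-like nuclei. Without the libraries numbered 1 it called 5 of 59, all lower, against 6.9% of all tests (5.1% lower and 1.79% higher). With a block for the replicate number it called 8 of 58, all lower, against 5.55% of all tests (3.03% lower and 2.52% higher).

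Fth1 had a negative log2 change with age in all 10 classes, from -0.41 in microglia-like to -1.03 in CA3-like nuclei. In mural-like nuclei the sign rested on single mice: it was 0.47 without young mouse 1. In granule-like nuclei young mice 1, 2 and 3 had 241, 194 and 114 CPM and old ad libitum mice 1, 2 and 4 had 122, 74.6 and 60.1 CPM. In each group the mouse numbered 1 was the highest, and the groups overlapped only between young mouse 3 and old mouse 1. The log2 change was -0.93 ± 0.41 (SE; edgeR adjusted p 0.177), and with a term for number 1 it was -0.94 ± 0.19 (adjusted p 0.0087). Acutely restricted mice had 109, 73.6 and 64.9 CPM and long-term restricted mice 106, 73.6, 46.3 and 42.2 CPM, all below the lowest young mouse.

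In oligodendrocyte-like nuclei Fth1 was at 1077, 639 and 499 CPM in young mice and at 555, 281 and 350 CPM in old ad libitum mice. Old mouse 1 lay above young mouse 3, and no other values overlapped. The log2 change was -0.75 ± 0.43 (SE, adjusted p 0.362), and -0.81 ± 0.14 (adjusted p 0.00031) with the term for number 1. In CA1-like nuclei the young mice had 198, 148 and 97.8 CPM and the old ones 91.3, 61.1 and 55.7 CPM, without overlap. Inhibitory-like nuclei showed 122, 102 and 66.2 CPM in young against 64.8, 40.5 and 34.8 CPM in old mice, and likewise did not overlap. Adjusted p-values with the term for number 1 were 0.034 in CA1-like, 0.047 in CA3-like, 0.010 in inhibitory-like and 0.0044 in precursor-like nuclei. Without the libraries numbered 1, CA1-like (0.071) and CA3-like nuclei (0.160) had no call, and with the replicate number as a block CA1-like nuclei had none (0.064). In endothelial-like, mural-like and microglia-like nuclei they were 0.54 to 0.96.

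In astrocyte-like nuclei Fth1 was at 700, 244 and 203 CPM in young mice 1, 2 and 3 and at 367, 93.3 and 104 CPM in old mice 1, 2 and 4, where old mouse 1 lay above young mice 2 and 3. The log2 change was -0.82 ± 0.76 (SE, edgeR adjusted p 0.683), and -1.01 ± 0.16 (adjusted p 0.00039) with the term for number 1. With group alone, leaving out 1 mouse at a time gave -1.96 (without old mouse 1, adjusted p 0.341) to -0.081 (without young mouse 1, adjusted p 0.999).

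With each nucleus thinned to 1000 UMIs, the share of granule-like nuclei with an Fth1 UMI was 10.97% to 21.7% in young mice and 6.09% to 11.6% in old ad libitum mice, and in oligodendrocyte-like nuclei it was 38.9% to 63.8% and 24.6% to 41.7%. The ranges overlapped in both classes. In microglia-like nuclei the shares were 16.2% to 17.7% and 10.2% to 16.5% and overlapped too, and in CA1-like nuclei they were 9.77% to 18.7% and 5.65% to 9.35%, without overlap.

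**Figure D2:**
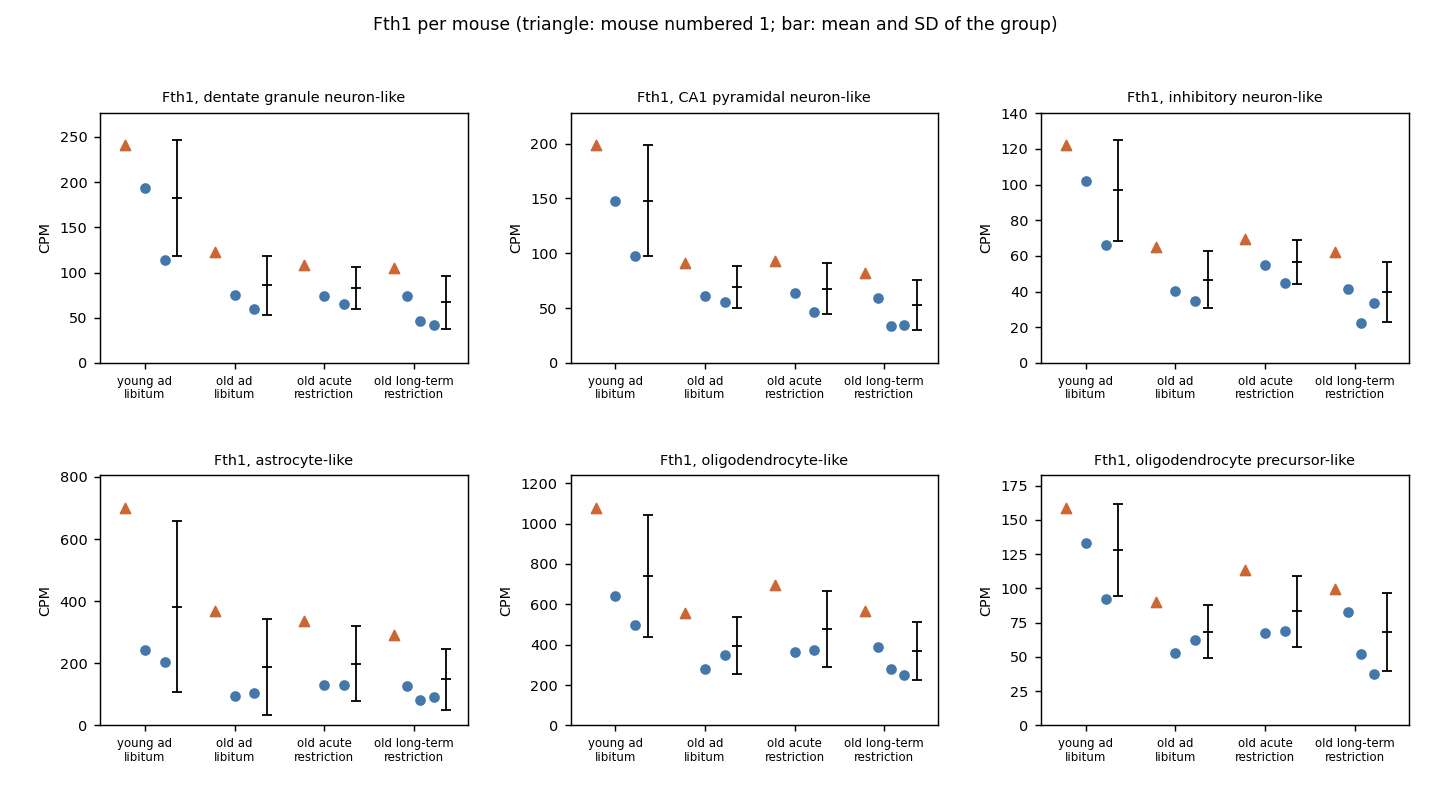
Fth1 level (CPM, linear axes from 0) in each mouse of the 4 groups in 6 classes. Triangles are mice numbered 1, circles the others, and bars the mean and SD of a group. The triangle is the highest point in every group shown. In granule-like nuclei the young circles are at 194 and 114 CPM and the old circles at 74.6 CPM or less.

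Several other measures moved with age beside Fth1. Genes that span under 5000 bases, as Fth1 does, had a median log2 change of -0.53 over 8096 tests, and 87.9% of their changes were below 0. With the term for number 1, 11.6% of these tests were called lower in old mice. Ribosomal protein genes had a median of -0.48. In granule-like nuclei their UMIs made up 0.209% to 0.327% of all in young and 0.158% to 0.205% in old ad libitum mice, and the median depth was 3879 to 6557 UMIs per nucleus in young and 7083 to 12762 in old mice. The Fth1 change was larger in size than the median of genes under 5000 bases in 9 of 10 classes, mural-like nuclei being the exception. In granule-like nuclei 19.8% of such genes had a change below that of Fth1, and in oligodendrocyte-like nuclei 36.7%. Once the trend of each library with gene span was removed, the Fth1 change was -0.41 in oligodendrocyte-like and -0.57 in granule-like nuclei, and no class had a call. That fit called 0.692% of all ageing tests. With median depth as a covariate the Fth1 change was -0.83 and -1.30, again with 0 calls, where 0.0411% of all ageing tests were called. Beyond these fits, the part of depth and of the shift of short genes in the Fth1 difference was not tested.

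**Figure D3:**
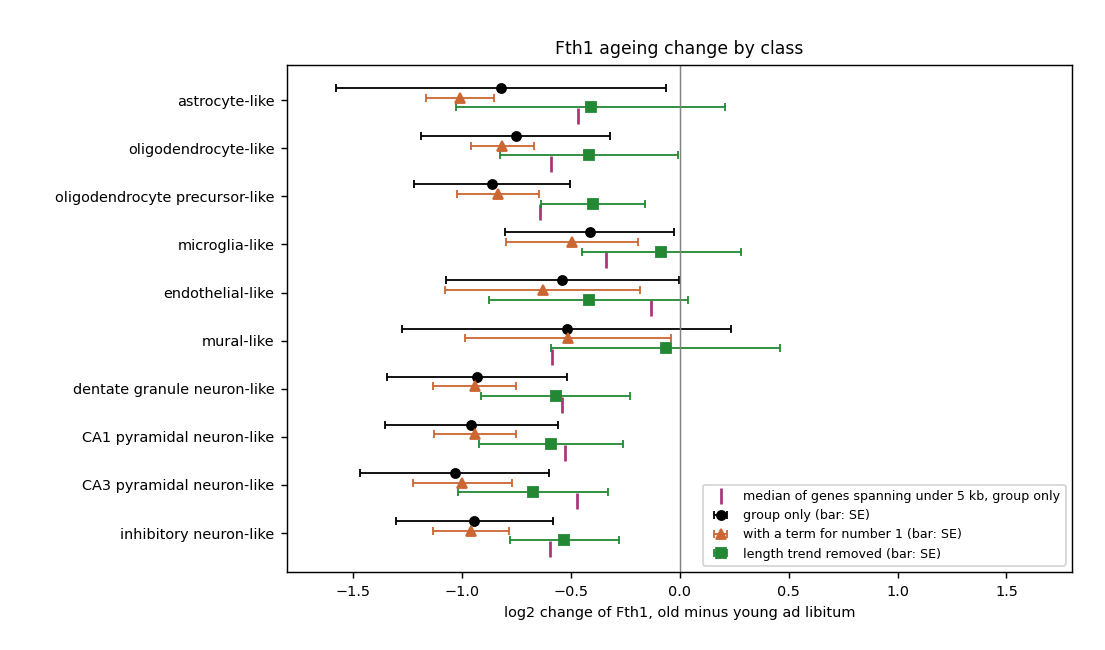
The log2 change of Fth1 between old and young ad libitum mice by class, with SE, from 3 fits, and the median change of genes spanning under 5000 bases as purple ticks. With group alone the points lie between -1.03 and -0.41, the term for number 1 shortens the error bars, and removal of the length trend moves the points toward 0.

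The mix of granule-like nuclei also differed with age: cluster 4 held 19.5% to 59.5% of them in young mice and 1.47% to 2.62% in old ad libitum mice. Young mice had higher medians within each of the 6 granule-like clusters. In cluster 0 the young mice had 107 to 235 CPM with a median of 184, and the old ad libitum mice 66.2 to 154 with a median of 80.0. In cluster 4 the medians were 215 and 87.5 CPM. The clusters were made without the 8 members among the clustering genes.

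Ftl1 had a negative log2 change in 8 of the 9 classes tested, mural-like nuclei excepted. In oligodendrocyte-like nuclei it was at 118, 56.1 and 47.1 CPM in young mice 1, 2 and 3 and at 47.1, 31.3 and 32.0 CPM in old mice 1, 2 and 4. The groups met at young mouse 3 and old mouse 1 without crossing. The change was -0.73 ± 0.29 (SE, edgeR adjusted p 0.125), -0.76 ± 0.22 (adjusted p 0.025) with the term for number 1 and -0.16 without the length trend. In inhibitory-like nuclei the change was -1.07 ± 0.42 (adjusted p 0.208), and -1.04 ± 0.29 (adjusted p 0.052) with the term. With the replicate block it was called (-0.96, adjusted p 0.036). Without the libraries numbered 1 no Ftl1 pair was called.

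The 3 metallothioneins were not called with age in any class, with or without the term for number 1. Mt1 in astrocyte-like nuclei was at 532, 330 and 225 CPM in young mice 1, 2 and 3 and at 406, 183 and 180 CPM in old ad libitum mice 1, 2 and 4. The old mouse numbered 1 lay above 2 of the 3 young mice. The log2 change was -0.37 ± 0.50 (SE, adjusted p 0.80), and -0.46 ± 0.27 (adjusted p 0.39) with the term. After removal of the length trend it was 0.25, so no direction is given for Mt1 there. Mt3 in the same nuclei was at 387, 140 and 123 CPM in young and 320, 94.3 and 152 CPM in old mice, and Mt2 at 123, 63.1 and 49.6 against 107, 38.3 and 52.1 CPM. In both genes the groups overlapped.

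In endothelial-like nuclei, where 2 young and 2 old ad libitum mice had sums, Mt1 was at 401 and 453 CPM in young and 295 and 227 CPM in old mice. The values did not overlap, and the log2 change of -0.74 ± 0.50 was not called (adjusted p 0.97). Slc40a1 went the other way in these nuclei, at 55.3 and 122 CPM in young mice, from 4 and 7 UMIs, and at 221 and 259 CPM in old mice, from 36 and 16 UMIs. Its log2 change of 1.39 ± 0.46 had an unadjusted p of 0.010 and was not called over all genes of the class (adjusted p 0.97). It was 1.40 with the term for number 1, 0.92 without young mouse 1, 2.04 without young mouse 3 and 0.98 without the libraries numbered 1. In the fits that left out mice, 1 young mouse remained. In microglia-like nuclei Slc40a1 was at 156, 176 and 208 CPM in young and 160, 154 and 85.3 CPM in old mice, with a log2 change of -0.53 ± 0.32 (adjusted p 0.57) and with overlap. Whether its response differed between the 2 classes was not tested.

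Tfrc in endothelial-like nuclei was at 318 and 418 CPM in young and 510 and 388 CPM in old ad libitum mice, which overlapped (log2 change 0.25 ± 0.40, adjusted p 0.99). Trf in oligodendrocyte-like nuclei was at 1691, 1139 and 1116 CPM in young mice 1, 2 and 3 and at 1187, 1106 and 1490 CPM in old mice 1, 2 and 4. These overlapped as well, with a log2 change of 0.06 ± 0.15 (SE, adjusted p 0.85).

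For dietary restriction, restricted mice of 24 months were set against ad libitum mice of that age. No member was called under long-term restriction (0 of 58 pairs in edgeR, with 0.0493% of all tests called) or acute restriction (0 of 58, with 0.229% of all tests called). The same held for long-term against acute restriction (0 of 58, with 0.0113% called). Unadjusted edgeR p-values below 0.05 numbered 0 in each of the 3 comparisons, where 4742, 4971 and 2886 of all 97366 tests had one. DESeq2 called 0 of 58 in each. The term for number 1 likewise gave 0 members, where it called 0.112%, 0.433% and 0.0329% of all tests in the 3 comparisons. The replicate block gave 0, with 0.231%, 0.419% and 0.0411% called, and leaving out the libraries numbered 1 gave 0, with 0.159%, 0.433% and 0.0844% called. The comparisons with ad libitum feeding share the old ad libitum mice.

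Mt1 in astrocyte-like nuclei was at 236, 196 and 230 CPM under acute restriction and at 332, 131, 97.9 and 182 CPM in long-term restricted mice 1 to 4, against 406, 183 and 180 CPM in ad libitum mice. All groups overlapped. The log2 change was -0.32 ± 0.50 (SE, adjusted p 1.00) under acute and -0.49 ± 0.47 (adjusted p 1.00) under long-term restriction, and without the libraries numbered 1 that of acute restriction was 0.23. Without ad libitum mouse 1 alone the changes were 0.29 and 0.12, so no direction is given for Mt1 under restriction. Mt3 there was at 166, 54.9 and 121 CPM under acute and 249, 112, 43.3 and 111 CPM under long-term restriction. Long-term restricted mouse 3 was the lowest of the 13 mice for Mt1, Mt2 and Mt3 in astrocyte-like nuclei, from 43, 8 and 19 UMIs.

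In endothelial-like nuclei Mt1 was at 150, 171 and 236 CPM under acute restriction and at 213 and 49.0 CPM under long-term restriction. Both long-term values lay below the ad libitum values of 295 and 227 CPM, and the log2 change of -0.95 ± 0.50 was not called (adjusted p 1.00). It was -2.37 without long-term mouse 1 and -0.35 without long-term mouse 4, with 1 long-term mouse left in each fit. Without the libraries numbered 1 it was -2.09, from 1 long-term and 1 ad libitum mouse. With the replicate block it was -0.45. Slc40a1 there was at 162, 128 and 173 CPM under acute and 174 and 163 CPM under long-term restriction, all under the ad libitum values of 221 and 259 CPM and above the young values. Neither difference was called (log2 changes -0.62 and -0.48).

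**Figure D4:**
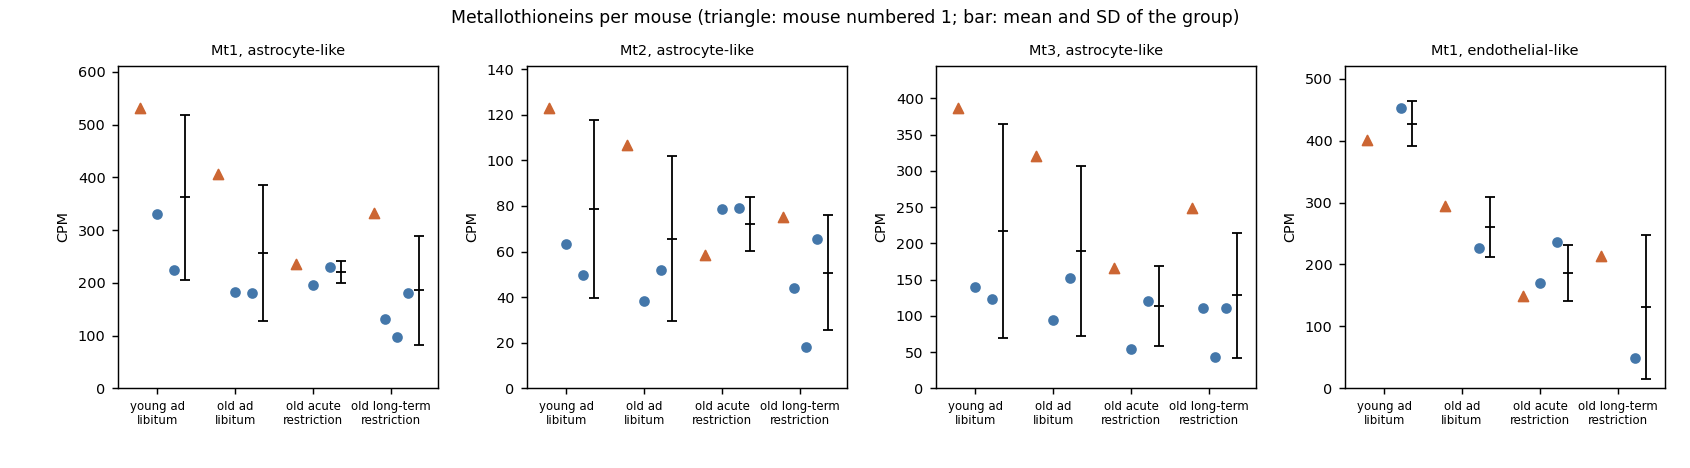
Levels (CPM, linear axes from 0) of Mt1, Mt2 and Mt3 in astrocyte-like nuclei and of Mt1 in endothelial-like nuclei in each mouse by group. Triangles are mice numbered 1 and bars the mean and SD of a group. In astrocyte-like nuclei the groups overlap for each gene, and for Mt1 and Mt3 the triangle is the highest point of its group.

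Trf in oligodendrocyte-like nuclei was at 1282, 1130 and 927 CPM under acute restriction and at 1243, 1061, 1111 and 929 CPM under long-term restriction, overlapping the ad libitum mice at 1187, 1106 and 1490 CPM. The log2 changes of -0.26 ± 0.14 and -0.24 ± 0.13 (SE) were not called (adjusted p 0.53 and 0.61). Fth1 in oligodendrocyte-like nuclei was at 696, 365 and 373 CPM under acute and 565, 390, 279 and 248 CPM under long-term restriction. The ad libitum range was 281 to 555 CPM, with 696 and 565 CPM above it and 279 and 248 CPM below it. Tfrc in endothelial-like nuclei was at 387, 739 and 627 CPM under acute and 543 and 507 CPM under long-term restriction. Mt2 in oligodendrocyte-like nuclei, at 3.80, 4.22 and 5.85 CPM under acute restriction against 2.48, 3.18 and 1.95 CPM, did not overlap, but rested on 1 to 13 UMIs per mouse (log2 change 0.82 ± 0.60, adjusted p 0.70).

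Other genes of these pathways were taken from 4 lists. Of 48 other iron genes, 35 were tested in at least 1 class, in 208 gene-class pairs. With age, edgeR called 2 pairs higher and 1 lower (1.44%, where 1.66% of all tests were called), and their median log2 change was -0.06 beside -0.02 over all tests. Cp, which encodes ceruloplasmin, the copper ferroxidase that acts with ferroportin, fell in oligodendrocyte-like nuclei. It was at 21.5, 35.2 and 22.1 CPM in young mice and 14.9, 12.7 and 8.57 CPM in old ad libitum mice, without overlap, from 2 to 44 UMIs per mouse (log2 change -1.29 ± 0.35, adjusted p 0.021). Restricted mice had 11.4 to 16.2 CPM (acute) and up to 29.4 CPM (long-term).

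In granule-like nuclei Slc39a8, a transporter of zinc, manganese and iron into cells, rose with age. It was at 3.08, 2.79 and 3.39 CPM in young and 5.31, 5.61 and 5.28 CPM in old ad libitum mice (log2 change 0.97 ± 0.20, edgeR adjusted p 0.034). Rnf217, a ubiquitin ligase described to act on ferroportin, rose in the same nuclei from 84.3, 82.0 and 105 CPM to 108, 122 and 123 CPM (log2 change 0.55 ± 0.13, adjusted p 0.046). Both also passed with the term for number 1, where 7.09% of all tests were called. For the list genes, fits with depth or without the length trend are not given here. Those fits called 0.0411% and 0.692% of all ageing tests. Slc40a1 itself was at or below 3.49 CPM in granule-like nuclei. No iron gene was called under long-term restriction, acute restriction or between the 2 (0 of 208 pairs in each, with 8, 5 and 1 at an unadjusted p below 0.05). Of all 97366 tests, 4742, 4971 and 2886 had such a p in these comparisons. DESeq2 also called 0 in each of these 3, where it called 0.0596%, 0.202% and 0.0113% of all tests. With age it called 4 iron pairs higher and 3 lower (3.37%, where it called 3.47% of all tests), and edgeR with the term for number 1 called 5 higher and 6 lower (5.29%, against 7.09%). None of these shares exceeds that of all tests.

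Of 31 zinc and copper genes, 28 were tested, and edgeR called 0 of 190 pairs with age (14 at an unadjusted p below 0.05) and 0 in each restriction comparison (7, 9 and 5). The shares of all tests called were 1.66% with age and 0.0493%, 0.229% and 0.0113% under restriction. Of all 97366 tests, 17867 with age and 4742, 4971 and 2886 under restriction had an unadjusted p below 0.05. DESeq2 called 0 of the zinc and copper pairs in all 4 comparisons, and edgeR with the term for number 1 called 1 pair higher with age (0.5263%, against 7.09%). Of the 17 genes of the NRF2 response to oxidative stress, all tested, 1 of 106 pairs was called with age (0.943%, where 1.66% of all tests were called), and 2 higher and 2 lower with the term for number 1 (3.77%, against 7.09%). DESeq2 called 1 higher and 1 lower (1.89%, against 3.47%). The pair that edgeR called was Nfe2l2 in granule-like nuclei. This gene encodes NRF2 itself and fell with age there, from 3.81, 5.80 and 4.86 CPM to 1.99, 1.73 and 2.01 CPM (log2 change -1.16 ± 0.24, adjusted p 0.034). Restricted mice lay at 1.49 to 2.84 CPM (acute) and 2.64 to 3.39 CPM (long-term). No pair of this list was called under restriction by edgeR (9, 3 and 3 at an unadjusted p below 0.05) or DESeq2.

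Genes of the glucocorticoid response were listed because glucocorticoids induce Mt1 and Mt2. Under acute restriction 10 of 82 pairs were called, all higher (12.2%, where 0.229% of all tests were called), and the median log2 change was 0.39. These genes, and their direction, were known from earlier results of these data, so the count is no independent evidence. In oligodendrocyte-like nuclei Plin4 (2.57), Hif3a (3.30), Nfkbia (2.01), Per1 (1.53), Fkbp5 (2.41), Tsc22d3 (0.62), Cdkn1a (2.32) and Sgk1 (2.89) rose, and in precursor-like nuclei Fkbp5 (1.12) and Hif3a (2.27). Mt1 in the same oligodendrocyte-like nuclei was at 53.3, 33.8 and 58.5 CPM under acute restriction and 79.3, 19.4 and 32.7 CPM in ad libitum mice, with a log2 change of 0.42 ± 0.62 (adjusted p 0.90). Under long-term restriction 1 of 82 pairs was called, Hif3a in oligodendrocyte-like nuclei (1.82; 1.22% of pairs, where 0.0493% of all tests were called). In long-term against acute restriction 2 were lower (2.44%, where 0.0113% of all tests were called), Plin4 (-1.61) and Hif3a (-1.48) in these nuclei, and 6 were lower with the term for number 1 (7.32%, against 0.0329%). DESeq2 called 9 pairs higher under acute restriction (10.98%, where it called 0.202% of all tests), and 0 between long-term and acute restriction (where it called 0.0113%). With age 1 of 82 pairs was called (1.22%, where 1.66% of all tests were called), Zbtb16 in granule-like nuclei, which rose (0.57). The term for number 1 gave 6 higher and 3 lower with age (10.98%, against 7.09%) and DESeq2 4 higher (4.88%, against 3.47%).

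Across mice, metallothioneins varied together in astrocyte-like nuclei. In all, 6 pairs of members were examined, and p-values from permutation tests were adjusted over 6. Mt1 and Mt2 had Pearson r 0.868 and Spearman rho 0.841 over 13 mice (permutation p 0.00012, adjusted 0.00024, and 0.00066, adjusted 0.0013). Mt1 and Mt3 had r 0.867 (permutation p 0.0002, adjusted 0.0003) and rho 0.824 (p 0.00086, adjusted 0.0013), and Mt2 and Mt3 had r 0.752 (permutation p 0.0030, adjusted 0.0030) and rho 0.709 (p 0.0084, adjusted 0.0093). In the 9 mice not numbered 1 these values were 0.759, 0.599 and 0.499 with exact permutation p 0.030, 0.10 and 0.25 (adjusted 0.060, 0.15 and 0.30). None of the 3 passed there. Without the 2 mice farthest from the median, r was 0.744, 0.733 and 0.481, so the relation of Mt2 and Mt3 rests on those mice (permutation p 0.14). The 4 mice numbered 1 had 166 to 387 CPM of Mt3 and the other 9 had 43.3 to 152 CPM.

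Fth1 and Ftl1 also varied together. In oligodendrocyte-like nuclei r was 0.919 (permutation p 2e-05, the smallest the permutations can give, adjusted 0.00012) and rho 0.934 (p 4e-05, adjusted 0.00024). In granule-like nuclei r was 0.906 (permutation p 0.00012, adjusted 0.00024) and rho 0.907 (p 0.00012, adjusted 0.00036). Both held in the 9 mice not numbered 1, at 0.880 and 0.788 (exact permutation p 0.0014 and 0.0028, adjusted 0.0083 for both), and without the 2 mice farthest from the median, at 0.874 and 0.921. In astrocyte-like nuclei r was 0.881 (permutation p 0.00038, adjusted 0.00046) and rho 0.709 (p 0.0093, adjusted 0.0093), but 0.371 without the mice numbered 1 (exact permutation p 0.31, adjusted 0.31), and the relation rests on them. The mice share depth and RNA content within a library, whose part in these relations was not tested.

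The genes most like each member were taken as those with the highest Pearson correlation of log2 CPM over mice, as a description. The class used was the tested one with the highest mean log2 CPM of the member. For Mt1 and Mt2 this was endothelial-like nuclei, although only 3 and 2 of 9 mice were higher there than in astrocyte-like nuclei. Mt2 rested there on 47 UMIs in all, with 1 to 12 per mouse. For Fth1 in oligodendrocyte-like nuclei (13 mice, 4683 genes) they were Cd81 (0.968), the ribosomal protein gene Rpl6 (0.961) and Pcsk1n (0.949). For Mt3 in astrocyte-like nuclei (13 mice, 5220 genes) they were the mitochondrial mt-Co1 (0.947), Cox6b1 (0.936) and Nap1l5 (0.925). Trf in oligodendrocyte-like nuclei was most like Tmem151a (0.903), Sdf4 (0.849) and Stmn4 (0.834). In endothelial-like nuclei (9 mice, 241 or 242 genes) Mt1 was most like Cst3 (0.909), Itm2a (0.852) and Ubb (0.804), and Mt2 like Egfl7 (0.873), Cst3 (0.851) and Itm2a (0.822). Ftl1 was most like Ubb (0.922) and Pde4d (0.686). Tfrc was most like Jcad (0.953), Sgms1 (0.927) and Kansl1 (0.923), and Slc40a1 like Fut8 (0.938), Mcc (0.923) and Tek (0.883), the latter falling to 0.444 in the 5 mice not numbered 1.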

How the data were processed

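The files deposited by the authors hold counts (UMIs of 32285 genes in each barcode) made with Cell Ranger 4.0.0 and the mm10 build, per the submitters' processing notes. The counting of introns, the use of strand and any removal of doublets or free RNA are not given in the sources used here. A barcode was kept if it had 500 or more genes and no more than 5% of its UMIs from mitochondrial genes (105427 of 105759), and the highest Scrublet scores (0.8% per 1000 barcodes, 7386 in all) were removed. Clusters came from 2000 variable genes without the 8 members, 30 components, 20 neighbours and Leiden resolution 1 (scanpy 1.11.5, leidenalg 0.10.2), and took a class name where at least 3 of its markers were raised, unless at least 50% of barcodes were doublets or other classes' markers led. Of 35 clusters 23 were named, and 3 of the 12 unnamed were mostly doublets. In the macrophage-like cluster 47.1% of barcodes had been removed as doublets.

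Counts were summed per mouse and class of at least 20 nuclei and fitted over all 13 mice with edgeR 4.0.16 (TMM, filterByExpr, robust quasi-likelihood; R 4.3.3), with Benjamini-Hochberg adjustment over all genes of a class. DESeq2 1.42.0 was an alternative. Log2 CPM used a prior count of 2, which raises low values in small classes. On simulated astrocyte sums for the ageing comparison the test was checked for recovery of known changes. Groups and replicate numbers were taken from the sample titles. Nothing states that same-numbered mice share a litter or day. Each library is 1 mouse by its label. Alternatives were normalization, filter, a term for number 1, replicate block, depth, length trend, minimum nuclei and each mouse left out. The named genes were the members, up to 10 called list genes per comparison by smallest adjusted p, and the 3 genes most like each member (1 of them is not reported here). The members and lists were chosen with earlier results of these data known.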

Additional observations from a re-analysis of the deposited data

Results flagged for a closer look

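In groups of 4 mice, a mouse was looked for whose gap to the next covered nearly the whole range of its group. Of 51 combinations of member and class in long-term restricted mice, 2 had such a mouse, and chance gives about 1 in 20. Ftl1 in CA3-like nuclei was at -0.35 log2 CPM in long-term restricted mouse 4, where 0 UMIs were counted, against 9.06 to 14.02 CPM in the other 3. Trf in the same nuclei was at 1.19 log2 CPM in mouse 1 of that group (1.37 CPM from 8 UMIs), against 3.61 to 3.78 CPM in the others. Over all groups, the 4 mice numbered 1 had 0.952 to 2.17 CPM of Trf there and the other 9 had 2.42 to 8.53 CPM. The low value is therefore not particular to this mouse. No member had groups without overlap in opposite directions in 2 classes.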

How the results depend on the processing

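No member was called in any restriction comparison under any alternative, and in ageing 0 of the members' pairs were called with DESeq2, RLE scaling, depth, length-trend removal, at least 50 nuclei or each mouse left out. Ageing calls of members numbered 8 with the term for number 1, 8 with the replicate block and 5 without the libraries numbered 1. Without the filter on low counts 1 of 80 pairs was called (1.25%, where 1.24% of all tests were called). Apart from these fits' own construction the cause was not tested. Same-numbered mice did not all vary together in granule-like nuclei, the class used for this check. Correlations of deviations were 0.363 to 0.782 for number 1 but -0.123 to 0.399 for number 2. They were -0.051 to 0.354 for number 3 and 0.356 for the 1 pair of number 4. Between different numbers they were -0.673 to 0.629, so the numbers are not taken to pair mice.

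The share of all tests called in ageing was 3.47% with DESeq2, 0.0411% with depth, 0.692% without the length trend, 7.09% with the number 1 term, 5.55% with the replicate block, 6.90% without number 1 and 0.188% (without young mouse 2) to 4.10% (without young mouse 1) on leaving out a mouse. For long-term restriction it was 0.0103% with depth, 0.0318% without the length trend, 0.112% with the number 1 term, 0.231% with the block, 0.109% unfiltered, 0.159% without number 1 and 0.0050% to 0.171% on leaving out a mouse. For acute restriction it was 0.0472% with depth, 0.433% with the number 1 term, 0.419% with the block, 0.433% without number 1 and 0.0790% to 0.296% on leaving out a mouse. For long-term against acute restriction it was 0.0246% without the length trend, 0.0329% with the number 1 term, 0.0411% with the block, 0.0345% unfiltered, 0.0844% without number 1 and 0.0050% to 0.0392% on leaving out a mouse.

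The leading class was kept by 5 of 8 members when CPM was pooled over mice: Mt1 and Mt2 then led in astrocyte-like and Fth1 in endothelial-like nuclei. With a prior count of 0.5, Mt1 and Mt2 also led in astrocyte-like nuclei. Without number 1, r fell to 0.759, 0.599 and 0.499 for the metallothionein pairs and to 0.371 for the ferritins in astrocyte-like nuclei. Log2 changes that turned sign were Mt1 in astrocyte-like nuclei with age (0.25 without the length trend) and acute restriction (0.23 without number 1), Tfrc in endothelial-like nuclei with age (-0.020 with depth, -0.20 without number 1) and Trf in oligodendrocyte-like nuclei with age (-0.010 without the length trend). On leaving out a mouse, ranges that crossed 0 were -1.43 to 0.47 for Fth1 in mural-like nuclei with age, -0.95 to 0.12 for Mt1 in astrocyte-like nuclei under long-term and -0.54 to 0.29 under acute restriction, and -0.084 to 0.19 for Trf in oligodendrocyte-like nuclei with age. The cause was not tested. Endothelial-like and mural-like nuclei could not be fitted at a minimum of 50 nuclei.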
